A study of Homo sapiens with 2 samples.

Results

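The chaperonin TRiC, also called CCT, is a folding machine of the cytosol, and its 8 subunit genes TCP1, CCT2, CCT3, CCT4, CCT5, CCT6A, CCT7 and CCT8 were followed here at the level of mRNA. The members were chosen by name, as the genes of the subunits, and not by any measured value. Earlier results of these data were known when they were chosen. All 8 had an entry among the 57736 genes of the tables. The data were 2 RNA-Seq libraries, replicates 1 and 2, of poly(A)+ RNA from HEK293T, a human line of embryonic kidney origin that carries the SV40 large T antigen. Both carried the genotype label wild type, no treatment was given for them, and they formed 1 group, so that no condition was compared with another. The labels give no separate cultures, so differences between the replicates may be technical, and the replicates are of a single line.

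In TRiC, every subunit occupies a fixed place in each of a pair of stacked rings, and the rings enclose a chamber in which proteins fold. ATP binding and hydrolysis open and close a built-in lid. Actin and tubulin are the best known obligate substrates, and several proteins with WD40 repeats depend on it as well. Because each ring needs a single copy of every subunit, the levels of the subunit mRNAs relative to one another are of interest, although mRNA levels do not give protein levels.

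All 8 subunits were detected, and all were among the more abundant mRNAs of the cells. Detection required at least 1 TPM in both replicates, which held for 27.7% of all genes. TPM gives the reads of a gene per transcript length, scaled to the same total in every library, and was used wherever levels of different genes were compared. The subunit levels ran from 293 to 692 TPM, whereas the median of the 12345 detected protein-coding genes was 21.2 ± 0.247 TPM (SD, n = 2). Each subunit was higher than at least 97.4% of those genes.

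The libraries held 10593491 and 10104118 estimated counts, and a gene with 0 counts may still have had up to 3. In the check of the labelled tissue, 2 of 8 kidney markers were detected, LRP2 with 9.12 ± 1.19 TPM and PAX2 with 3.41 ± 1.32 TPM (SD, n = 2). The kidney markers UMOD, AQP2 and CDH16 had 0 counts in both libraries, and no marker of blood, fibroblasts or liver was detected (0 of 2 in each list), with a summed level of at most 0.290 TPM for any of these lists.

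CCT3, the gamma subunit, had the highest level, with 694 TPM in replicate 1 and 690.5 TPM in replicate 2 (692 ± 2.35, SD, n = 2). Its value was close in both replicates and placed it at rank 125 of the detected protein-coding genes. CCT7, the eta subunit, followed with 503 and 472 TPM (487 ± 22.1). The ranges of CCT3 and CCT7 did not overlap, and the level of CCT3 was 1.42 ± 0.0596 times that of CCT7.

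TCP1, the alpha subunit after which the protein family is named, had 414 and 420.3 TPM (417 ± 4.20, SD, n = 2). CCT5, the epsilon subunit, had 399.8 and 401 TPM (400.5 ± 0.919). CCT4, the delta subunit, had 339 and 344 TPM (341 ± 2.93). In these 3 subunits the replicates lay within a few percent of each other, and every value of TCP1 was above every value of CCT5, and every value of CCT5 above every value of CCT4.

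CCT8, the theta subunit, had 325 and 333 TPM (329 ± 5.73, SD, n = 2). CCT6A, the zeta subunit of most tissues, had 304 and 309 TPM (306 ± 3.66). CCT2, the beta subunit, was the lowest with 287 and 299.6 TPM (293 ± 9.04), at rank 317 of the detected protein-coding genes. The lower value of CCT6A exceeded the higher value of CCT2 by only a few TPM.

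The order CCT3, CCT7, TCP1, CCT5, CCT4, CCT8, CCT6A and CCT2 was the same in both replicates, and all 7 pairs of neighbours had replicate ranges that did not overlap. The tables also hold an interval for each TPM value, which describes the uncertainty of the estimate within a library. By these intervals only 3 of the 7 neighbour pairs were apart in both replicates, CCT3 from CCT7, CCT7 from TCP1 and CCT5 from CCT4. The pairs TCP1 and CCT5, CCT4 and CCT8, CCT8 and CCT6A, and CCT6A and CCT2 could not be placed in order within that uncertainty. The intervals belong to the posterior mean of the TPM, which came to between 92.4% and 96.0% of the TPM of a subunit, and the TPM lay above the upper bound for 7 of the 8 subunits in each replicate, the exception being CCT7. In replicate 1 it did so for 946 of the 15997 detected genes (5.91%).

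**Figure D1:**
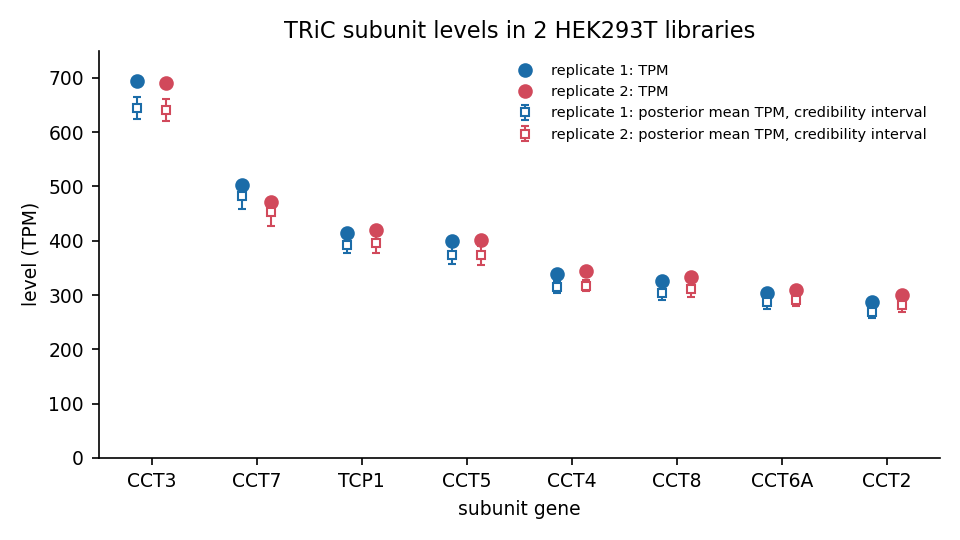
Level of each TRiC subunit in TPM, by replicate, with the posterior mean and its credibility interval beside the TPM value of each library. CCT3 stands highest at 692 TPM and CCT2 lowest at 293 TPM, and the replicates of each subunit lie closer to each other than CCT3 lies to CCT7.

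Summed over the 8 subunits, TRiC mRNA made up 3266 TPM in replicate 1 and 3269 TPM in replicate 2 (3267 ± 2.04, SD, n = 2), or 0.327% of all transcripts. The highest subunit was 2.36 ± 0.0808 times the lowest. Without CCT3 the ratio of highest to lowest was 1.66 ± 0.127. CCT3 held 21.2% of the sum and CCT2 held 8.97% ± 0.271, where an even division would give 12.5% to each.

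In the ring, CCT3, CCT6A, CCT7 and CCT8 form the side of lower ATP affinity, and TCP1, CCT2, CCT4 and CCT5 the side of higher affinity. The genes of the first side ran from 306 to 692 TPM and summed to 1815 ± 15 TPM, or 55.5% of the total. Those of the second side ran from 293 to 417 TPM and summed to 1452 ± 17.1 TPM (SD, n = 2), or 44.5%. The ranges overlapped, the grouping was chosen after the values were seen, and no test was made of it.

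The place of a subunit in the order depended on the transcript length used to scale it. The deposited length is an average weighted by the isoforms that the reads were assigned to. The TPM derive from a separate effective length, deposited as well, whose values are not given here. The annotation marks a single canonical transcript for each gene. The weighted length of CCT5 was 1535 nt in replicate 1 and 1466 nt in replicate 2, or 45.6% of its canonical transcript of 3293 nt. For the other 7 subunits the weighted length was between 73.8% of the canonical one, in TCP1, and 91.2%, in CCT2. When CPM, the counts scaled to an equal total per library, were divided by the canonical length in kilobases, CCT3 remained first with 379 ± 2.85 and CCT7 second with 282 ± 2.59. On this scale CCT5 came last with 125 ± 2.47 (SD, n = 2), and the ratio of highest to lowest was 3.03. The order on this scale was CCT3, CCT7, TCP1, CCT8, CCT4, CCT2, CCT6A and CCT5 by the means and was not the same in both replicates, with 5 of the 7 pairs of neighbours separate and the ranges of TCP1 and CCT8 and of CCT4 and CCT2 overlapping. The coding sequences are of similar size, from 531 codons in CCT6A to 556 in TCP1, the stop codon included.

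**Figure D2:**
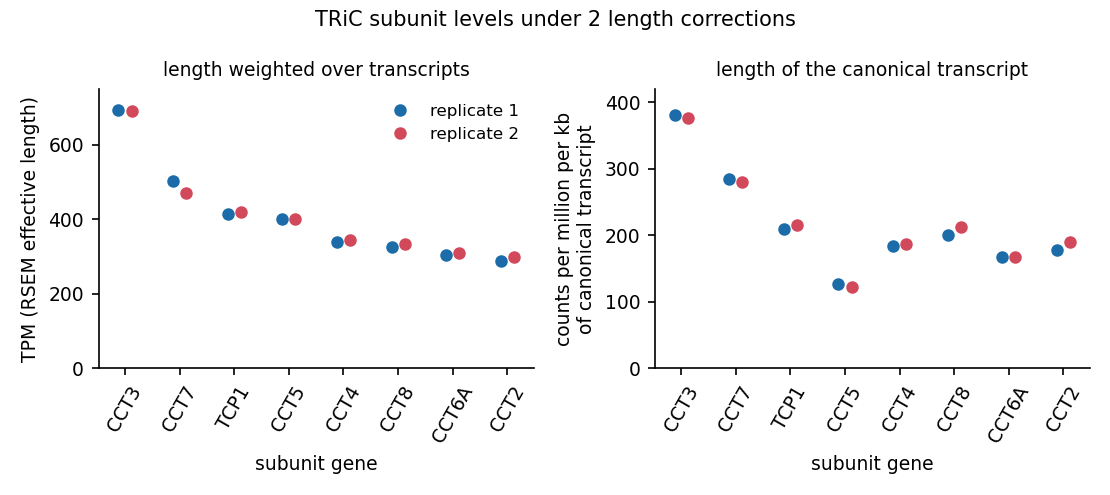
Level of each subunit in replicates 1 and 2 (points), as TPM on the left and as normalized CPM per kilobase of the canonical transcript on the right. CCT5 lies among the higher subunits at 400.5 TPM on the left and lowest at 125 on the right, while CCT3 and CCT7 are the highest in both panels.

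The replicates of TRiC subunits were close. The absolute difference of log2(TPM + 1) between the replicates had a median of 0.0224 over the 8 subunits and ranged from 0.00467 in CCT5 to 0.0923 in CCT7. It was 0.139 over all 15997 detected genes and 0.0744 over the 1408 detected genes of at least 100 TPM. Of the latter, 999 were higher in replicate 1, so their median may include a shift shared by many genes. From normalized CPM the median over the subunits was 0.0305, and no median of other genes was computed on that scale. On the TPM scale 6 subunits were higher in replicate 2, as were 29.0% of those 1408 genes, and 2 subunits, CCT3 and CCT7, were higher in replicate 1.

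Whether a gene differed between the libraries beyond counting error was tested on counts by an exact two-sided binomial test with Benjamini-Hochberg adjustment. It called 0 of 8 subunits, against 694 of 17920 genes tested (3.87%). At an unadjusted p of 0.05, it marked 2 of 8 subunits, against 13.3% of the genes tested. One was CCT2, with 342 and 363 normalized CPM in replicates 1 and 2, a log2 ratio of 0.09 and an exact binomial p of 0.00996 (adjusted p = 0.149, and from 0.133 to 0.244 over the other settings). The other was CCT8, with 373 and 392 normalized CPM, a log2 ratio of 0.07 and an exact binomial p of 0.0218 (adjusted p = 0.240, and from 0.208 to 0.386 over the other settings). The remaining 6 subunits had log2 ratios from -0.04 to 0.04 and adjusted p-values from 0.606 to 0.964 in the exact test. Such a test compares these libraries only.

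In CCT7 and CCT5 the counts and the TPM moved differently. CCT7 had 5576 counts in replicate 1 and 5217 in replicate 2, a log2 ratio of -0.02 after normalization, while its weighted length was 1534 nt and 1588 nt, and its TPM was lower in replicate 2. CCT5 had 4433 and 4086 counts, a log2 ratio of -0.04, with the shorter weighted length in replicate 2, and nearly equal TPM. The part of the length estimates in these TPM values was not tested separately.

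**Figure D3:**
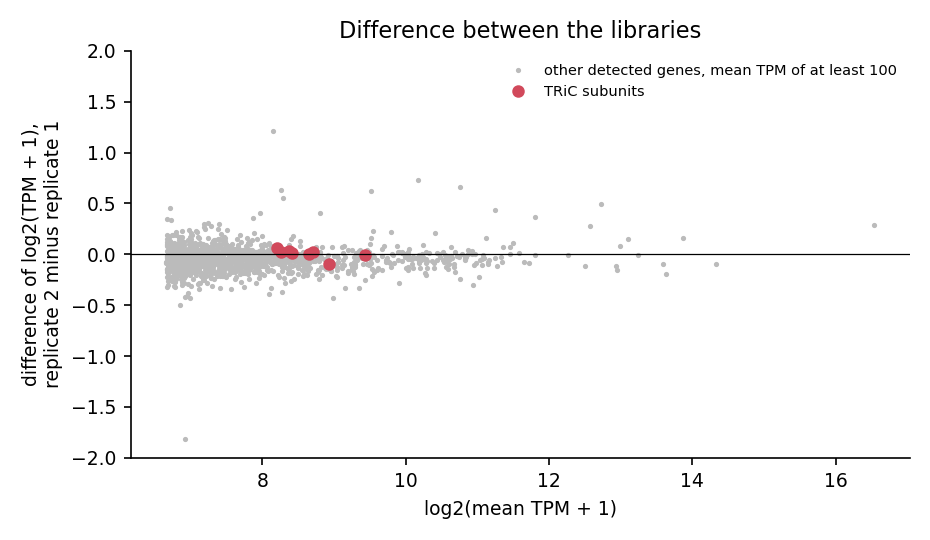
Difference of log2(TPM + 1), replicate 2 minus replicate 1, against log2(mean TPM + 1), with the 8 TRiC subunits as large points among the 1408 detected genes of at least 100 TPM. The subunits lie close to the line of no difference, CCT7 farthest from it at an absolute difference of 0.0923.

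The subunit genes are spread over 7 chromosomes (GRCh37 coordinates here and below unless another build is named). CCT3 (ENSG00000163468) lies at chr1:156278759-156337664 on the minus strand. Chromosome 2 holds both CCT4 (ENSG00000115484) at chr2:62095220-62115806 on the minus strand and CCT7 (ENSG00000135624) at chr2:73460548-73480149 on the plus strand. CCT5 (ENSG00000150753) lies at chr5:10250041-10266501 on the plus strand and TCP1 (ENSG00000120438) at chr6:160199530-160210735 on the minus strand. CCT6A (ENSG00000146731) lies at chr7:56119378-56131682 on the plus strand, CCT2 (ENSG00000166226) at chr12:69979206-69995350 on the plus strand and CCT8 (ENSG00000156261) at chr21:30428126-30446118 on the minus strand. Their canonical transcripts have between 11 exons, in CCT5, and 16 exons, in CCT2.

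Several subunits have pseudogene copies, and reads of 50 bases that fit both a gene and its copy were shared out between them in the counts. Pseudogenes were found by symbol, that is, the symbol of the subunit (CCT6 for CCT6A) followed by P and digits. Copies annotated under other names were not counted. The annotation held 14 pseudogenes found in this way. Of these, 4 had 0 counts in both libraries, 7 had fewer than 10 counts in sum, and 3 had at least 10, namely CCT6P3, CCT6P1 and CCT4P2. The subunits held 99.543% and 99.487% of the counts of subunits and pseudogenes together in replicates 1 and 2. CCT6A stood lowest, with 96.450% and 96.019% of the counts of its group of copies. For the other 7 subunits the mean share was at least 99.846%, the value of CCT4. CCT2, for which no pseudogene was found by symbol, stood at 100% by definition.

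CCT6P3, at chr7:64525377-64534226, had 125 counts in replicate 1 and 143 in replicate 2, or 6.72 ± 0.467 TPM (SD, n = 2). CCT6P1, at chr7:65216129-65228323, had 43.3 and 38.6 counts, or 4.42 ± 0.247 TPM. Both are annotated as transcribed unprocessed pseudogenes, that is, copies that kept introns, on the same chromosome as CCT6A. Among the pseudogenes found by symbol, they were the only ones detected at 1 TPM in both replicates. CCT6A itself had 4586 and 4384 counts. CCT6P2 and CCT6P4, processed copies without introns, had 0 counts.

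The copies resemble the coding sequence of CCT6A over long stretches. Of its 1593 bases, 68.6% could be matched to CCT6P1 with 95.6% identity and 70.3% to CCT6P3 with 95.8% identity. The stretch below lies in exon 3 of 14, within the coding sequence at chr7:56122119-56122178 on the plus strand, and encodes the conserved nucleotide-binding motif of chaperonins. It is shown because 2 differing bases separate each copy, CCT6P1 at chr7:65219571-65219630 and CCT6P3 at chr7:64525434-64525493 (both on the plus strand), from the gene. Capitals in the line of CCT6A mark the 3 positions at which either copy differs from it, and capitals in a copy mark its own differences.

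CCT6A: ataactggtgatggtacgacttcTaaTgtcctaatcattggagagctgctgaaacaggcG

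CCT6P1: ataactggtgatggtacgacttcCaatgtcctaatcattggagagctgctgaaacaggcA

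CCT6P3: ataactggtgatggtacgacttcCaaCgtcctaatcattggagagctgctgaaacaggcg

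Any read of 50 bases within this stretch covers the first marked position, at which both copies differ from CCT6A. Over the canonical transcript of CCT6A, 131 of 2535 windows of 50 bases (5.17%) had an exact match in one of its pseudogenes. The share was larger in CCT8, with 235 of 1805 windows (13%), and in TCP1, with 186 of 2303 windows (8.08%), and it was 3.05% in CCT5. CCT3, CCT4 and CCT7 shared 0 windows with their own pseudogenes, and for CCT2 none was found by symbol. By this measure CCT8 shared the largest part of its transcript, and it had 3.78 and 4.98 counts at its copy CCT8P1. CCT6A shared less and had 169 and 182 counts at its copies. The windows were taken from spliced transcripts, so those across an exon junction can hardly match copies that kept introns, such as CCT6P1 and CCT6P3. CCT8P1 is a processed copy without that limit, so the shares of CCT6A and CCT8 are not strictly comparable.

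**Figure D4:**
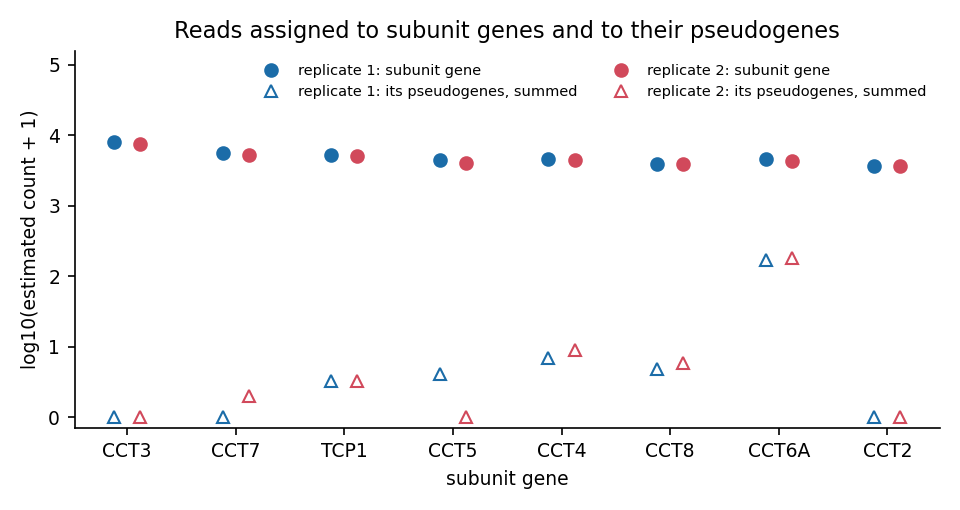
Estimated counts of each subunit (circles) and of its pseudogenes found by symbol in sum (triangles) in each replicate, as log10(count + 1). CCT2, for which no pseudogene was found by symbol, is drawn at 0. The CCT6 pseudogenes, with 169 and 182 counts in sum, stand above the copies of the other subunits.

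The posterior SD of a count, which measures how uncertain the sharing of reads left it, was at most 0.192% of the count of any subunit. TCP1 had the largest, 10.0 counts in replicate 1 and 9.69 in replicate 2. The gene ACAT2, an acetyl-CoA acetyltransferase whose 3′ end overlaps that of TCP1 on the other strand, had 51.8 ± 0.0990 TPM (SD, n = 2) and a posterior SD of 11 and 10.7 counts. CCT4 had a posterior SD of 1.05 and 1.80 counts, the same values as the overlapping gene ENSG00000236498. CCT8 had 1.16 and 1.27 counts, the same values as its pseudogene CCT8P1. For CCT2 and CCT3 it was 0 in both replicates.

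Other genes that overlap a subunit had few counts. TSACC, within the span of CCT3, had 32 and 21 counts, and ENSG00000231125, overlapping CCT8, had 16 and 14. The small nucleolar RNA gene SNORA20, within TCP1, had 6 and 2 counts, SNORA22 within CCT6A had 4.43 and 5.93, SNORA15 within CCT6A had 2 and 0, and SNORA29 within TCP1 had 0 in both. The libraries were made from poly(A)+ RNA, which such short RNAs lack. The strand setting of the counting was not stated in the labels or methods, so reads of overlapping genes on opposite strands may not have been told apart.

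The starts of several subunits lay close to that of a gene running the other way. For 5 of 8 subunits, a protein-coding gene on the other strand began within 1000 bases and ran in the opposite direction, which held for 11.5% of the 12345 detected protein-coding genes. The starts of CCT5 and ATPSCKMT were 32 bases apart, those of CCT4 and COMMD1 53 bases, those of CCT6A and PSPH 81 bases, those of TCP1 and MRPL18 109 bases and those of CCT7 and PRADC1 181 bases. Starts are those of the annotated genes and were not measured here.

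In each of these pairs the subunit was the higher gene in both replicates. MRPL18, a protein of the mitochondrial ribosome, had 134 ± 9.94 TPM (SD, n = 2), and TCP1 was 3.12 ± 0.263 times as high. PSPH, the phosphoserine phosphatase of serine synthesis, had 39.7 ± 0.368 TPM, and CCT6A was 7.71 ± 0.0209 times as high. COMMD1, a regulator of copper homeostasis and NF-kappaB, had 22.1 and 16.9 TPM, and CCT4 was 17.9 ± 3.55 times as high. The ratio was 36.5 ± 0.643 for CCT7 to PRADC1 and 45.1 ± 0.678 for CCT5 to ATPSCKMT, a lysine methyltransferase of the mitochondrial ATP synthase with 8.88 ± 0.113 TPM. The neighbours ranged from 8.88 to 134 TPM, and the subunits of these pairs from 306 to 487 TPM.

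**Figure D5:**
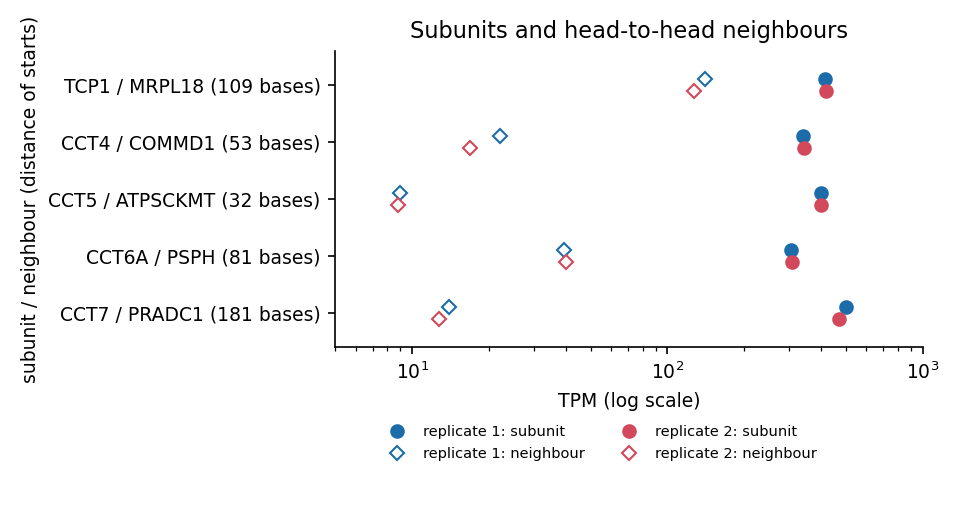
Level in TPM (log axis) of each subunit and of the protein-coding gene that starts in the opposite direction within 1000 bases, by replicate. The subunit is the higher gene in all 5 pairs, by 3.12 times over MRPL18 and by 45.1 times over ATPSCKMT.

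The bases between the paired starts are shown for 4 of these pairs, because a single short span there lies upstream of both genes. The fifth, between CCT5 and ATPSCKMT, consists of 31 bases that are all A on the strand of CCT5 and is not shown. They are written on the strand of the subunit and end just before its start. Capitals mark CCAAT or GGGCGG, the letters recognised by the factors NF-Y and Sp1, on either strand (ATTGG and CCGCCC on the other one). The span of TCP1 is chr6:160210736-160210843 on the minus strand, that of CCT4 chr2:62115807-62115858 on the minus strand, that of CCT6A chr7:56119298-56119377 on the plus strand and that of CCT7 chr2:73460368-73460547 on the plus strand.

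TCP1 and MRPL18: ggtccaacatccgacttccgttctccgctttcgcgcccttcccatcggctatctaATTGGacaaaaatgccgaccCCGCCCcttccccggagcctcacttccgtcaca

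CCT4 and COMMD1: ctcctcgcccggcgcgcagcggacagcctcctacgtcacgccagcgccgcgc

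CCT6A and PSPH: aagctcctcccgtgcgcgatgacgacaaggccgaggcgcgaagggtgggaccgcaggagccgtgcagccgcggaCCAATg

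CCT7 and PRADC1: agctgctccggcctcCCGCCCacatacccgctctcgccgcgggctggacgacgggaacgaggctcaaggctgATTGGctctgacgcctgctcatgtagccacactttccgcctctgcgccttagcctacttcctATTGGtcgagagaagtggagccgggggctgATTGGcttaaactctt

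CCAAT occurred in 3 of the 5 spans, once each for TCP1 and CCT6A and 3 times for CCT7, and in 105 of 491 spans of 31 to 180 bases between diverging protein-coding genes (21.4%). GGGCGG occurred in 2 of the 5, for TCP1 and CCT7, and in 50.3% of the 491. The spans of CCT4 and CCT5 held neither, and 78.8% of the bases were G or C in that of CCT4 and 0% in that of CCT5. These matches describe the letters of the spans and were not tested for a role.

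In the RefSeq promoter windows, which run from 250 bases before to 50 bases after a start (GRCh38.p14), 7 of the 8 subunits were matched, all but CCT6A. Each of the following was searched on both strands, and a gene was counted when any of its windows held the letters. The RefSeq starts can differ from the annotated gene starts used for the spans above. The windows of CCT5 and CCT7 did not overlap their spans, so the CCAAT of the CCT7 span were not counted here. CCAAT was found in 4 of the 7, TCP1, CCT2, CCT3 and CCT8, and for 39.7% of the 27305 genes with such a window. GGGCGG was found in 5 of the 7 and for 48.3% of all genes, and TTCCGG, the core of ETS factor motifs, in CCT2 and CCT5 and for 20.1% of all genes. Of the forms of the heat shock element, GAANNTTC was found in TCP1 and CCT2 and for 8.21% of all genes. TTCNNGAA was found in CCT4 and for 9.46% of all genes. For CCT2, one window held CCAAT and TTCCGG but lacked GAANNTTC, and another held GAANNTTC but lacked CCAAT and TTCCGG. Another window of CCT4 lacked TTCNNGAA. The forms of the heat shock element can overlap in a longer element. CACGTG, the E-box bound by MYC, was found in 0 of the 7 and for 8.77% of all genes.

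Prefoldin hands unfolded actin and tubulin to TRiC, and its 6 subunits PFDN1, PFDN2, VBP1, PFDN4, PFDN5 and PFDN6 were all detected. Their levels ran from 57.5 ± 5.74 TPM in PFDN4 to 196 ± 7.74 TPM in PFDN5 (SD, n = 2), so that each lay below the lowest TRiC subunit. The median of the TRiC subunits was 3.83 ± 0.104 times that of prefoldin, and the sum was 5.10 ± 0.111 times as large. None of the 6 differed between the libraries in the exact binomial test (unadjusted, 0.0652 was the lowest p).

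Phosducin-like proteins bind TRiC and modulate its work. PDCL3 had 34.8 ± 0.983 TPM, TXNDC9 21.6 ± 1.42 and PDCL 20.6 ± 2.47 (SD, n = 2), while PDCL2 had 0 counts in both libraries. Of the tubulin cofactors, TBCA had 349 and 288 TPM. The first value lay within the range of the TRiC subunits in its library and the second below the lowest subunit. TBCB had 81.1 and 76.3 TPM, TBCD 43.8 ± 3.76 and TBCC 16.6 ± 1.00, and TBCE was not analysed here.

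The relatives of TRiC subunits were lower. CCT6B, the zeta subunit known from testis, had 4 counts in each library, against 4586 and 4384 for CCT6A. CCT8L2 had 0 and 1 count, and CCT8L1P had 0. The chaperonin-like genes linked to Bardet-Biedl syndrome were detected, MKKS with 22.4 ± 0.665 TPM, BBS10 with 6.07 ± 0.354 and BBS12 with 2.19 ± 0.636 (SD, n = 2). In contrast, HSPD1, the chaperonin of mitochondria, had 713 and 723 TPM and was 1.04 ± 0.0139 times as high as CCT3 and 1.93 ± 0.00934 times the median of the TRiC subunits. Its partner HSPE1 had 346 and 314 TPM, within their range.

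Of the substrates, the 10 actins and tubulins listed were all detected and summed to 2.84 ± 0.0355 times the TRiC sum. ACTB with 3217 ± 125 TPM, ACTG1 with 2432 ± 38.1, TUBA1B with 1212 ± 57.1 and TUBB with 1159.7 ± 6.72 (SD, n = 2) were above CCT3. TUBA1B had an adjusted p of 3.25e-10 and TUBB of 0.00127 in the exact binomial test between the libraries, with log2 ratios of 0.14 and -0.06. Tubulin genes resemble each other in sequence, and how reads were shared among them was not examined here. The 10 substrates with WD40 repeats and other substrates, such as CDC20 with 139 ± 2.79 TPM and GNB2 with 125 ± 9.90, were all detected and all below the lowest TRiC subunit. Among these only GNB4 differed between the libraries (exact binomial test, adjusted p = 0.0255).

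The spread of levels among subunits was also set beside that of other complexes, as values with no test. The coefficient of variation of mean TPM was 32.2% over the 8 TRiC subunits, 44.7% over the 6 prefoldin subunits and 48.2% over 13 of the 14 genes of the 20S proteasome core. The highest member was 2.36 times the lowest in TRiC, 3.41 times in prefoldin and 6.58 times in the proteasome core, from PSMA2 with 58.9 TPM to PSMA4 with 387 TPM. Within the proteasome core 12 of the 13 genes lay below the mean of CCT2, the lowest TRiC subunit, in both replicates. Within replicate 1, however, PSMB4 with 289 TPM was above CCT2 with 287 TPM. PSMA2 differed between the libraries (exact binomial test, adjusted p = 0.0241).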

How the data were processed

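Poly(A)+ RNA of HEK293T cells was sequenced as 50-base reads in 2 libraries of 1 group. Per the labels, the authors used Trimmomatic 0.36, STAR 2.6.1c and RSEM 1.3.1 with GRCh37.p13. The methods name featureCounts, but the deposited columns are those of RSEM. Expected counts were deposited by the authors and share out reads that fit several genes. TPM values, scaled by transcript length to an equal total per library, and FPKM values, scaled by length and library reads, were deposited by the authors as well. The authors also deposited scores for the uncertainty of these values, namely a posterior SD for each count and an interval for each TPM, whose level was not stated. A further table of the series, made by the authors from pooled reads, gave subunit counts equal to the sums of the replicates within 0.00263%.

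Genes were named and located by GENCODE release 44, mapped to GRCh37 (96.1% of identifiers matched). Rounded counts of replicates 1 and 2 were set against their TMM-normalized library sizes (edgeR 4.0.16) in an exact two-sided binomial test (scipy 1.17.1), adjusted by Benjamini-Hochberg across all genes with at least 10 counts in sum. Log2 ratios used 0.5 added counts. The p-values and floors cover counting error only. CCT6A was matched to its copies with blastn 2.17.0 without gaps.

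The members and lists were chosen with earlier results of these data known. Genes named were the 8 subunits, the listed cofactors, relatives, substrates, complexes and markers, the annotated pseudogenes of the subunits, and genes that overlap a subunit or start within 1000 bases of its start on the opposite strand. Alternatives were other detection thresholds, units, normalizations, filters and errors, and leaving out each replicate.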

Additional observations from a re-analysis of the deposited data

How the results depend on the processing

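Of 38 alternative values, 7 moved beyond the limits set (1.5 times for a count, the SD over the subunits for the median replicate difference and the SD of the replicates for other values), 31 did not, and 0 reversed. The ratio of highest to lowest subunit was 2.13 from counts not scaled by length and 3.03 by canonical length, the latter added after seeing the data, against 2.36. The summed level was 0.307% by posterior mean TPM and 0.379% as a share of counts, against 0.327%. By credibility intervals 3 pairs of neighbours were separate, and by canonical length 5 pairs, in an order that differed between the replicates, against 7. The genes differing between the libraries numbered 293 with the posterior SD added to the counting error, 448 with posterior mean counts, 564 without the filter and 506 with at least 100 counts in sum, against 694. The subunits called numbered 0 under every alternative run. With either replicate alone the ratio was 2.30 to 2.42, the summed level 0.327% and the share of counts in subunits rather than pseudogenes 99.487% to 99.543%. No paired analysis was possible because there was only 1 group. The place of CCT5 rests on the isoform lengths of the tables, and with 1 group no condition was compared.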
